A study of Mus musculus with 59 samples.

Results

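The comparison set the prefrontal cortex of 10 WT-labelled mouse pups exposed to lithium against that of 10 WT-labelled pups exposed to fluoxetine, 5 females and 5 males under each drug, out of 59 libraries in all. The members are all libraries whose column name carries the WT lithium or the WT fluoxetine code, and the sex letter in the name served as a block. All pups were of the C57BL/6J strain and were taken at postnatal day 25. The labels divide them by genotype at Chd8 (allele Chd8-S62X), and the 20 libraries carry the wild-type label. Lithium or fluoxetine had reached them through the mother's milk between day 3 and day 24. A further 10 WT-labelled libraries from pups given vehicle are quoted beside the drugs, and 10 lithium and 9 fluoxetine libraries from HT-labelled (heterozygous) pups served as a second set. No dam, litter or animal is named in the labels. The p-values therefore rest on the spread between libraries and take pups of one mother as independent.

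Lithium, a mood stabiliser, inhibits inositol monophosphatase and glycogen synthase kinase 3 (GSK3), the kinase that marks beta-catenin for destruction. Fluoxetine, an antidepressant, blocks the serotonin transporter and so slows the reuptake of serotonin released in the cortex. The direct comparison asks how the cortical RNA of young pups differs between the drugs, and does not by itself tell which drug moved a gene, so vehicle values stand beside the main results. In bulk tissue a lower level can mean fewer cells of a type or less RNA per cell, and these cannot be told apart.

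The deposited values are normalized counts. They summed to between 31.8 and 33.7 M in the 20 libraries, and log2 values of any pair of these libraries correlated at 0.974 to 0.991. Taking the most frequent low value of each library as 1 read gave a rough estimate of 25.8 to 36.9 M reads. Chd8, the targeted gene (chr14:52198151-52257780 in GRCm38, minus strand), averaged 3822 ± 254 normalized counts with lithium and 3562 ± 400.3 with fluoxetine (SD, n = 10 each; permutation test, two-sided p = 0.099). The lowest of the 29 HT-labelled libraries held 5115 normalized counts of Chd8 and the highest of the 30 WT-labelled ones 4229, so the genotype labels separate the libraries, but with Chd8 RNA higher under the HT label. Genotypes are therefore given as labelled. Defining markers of cortical neurons and glia were present in every library, with all 14 excitatory neuron markers above a mean of 10 normalized counts in both drug groups. One library stood apart: replicate 2 of the lithium males had a mean log2 level of 10.96 over 13 striatal markers, against 8.91 in the next highest lithium library and at most 8.82 in the fluoxetine libraries.

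Of 16839 genes with a mean of at least 10 normalized counts, 990 differed between lithium and fluoxetine, which is 5.88% of those tested (limma on log2 values, Benjamini-Hochberg adjusted p under 0.05, here "called"). Lithium libraries were higher for 490 of them (2.91%) and lower for 500 (2.97%). The differences were small: the median absolute log2 difference of called genes was 0.18, only 31 passed a fold of 1.5 and 2 a fold of 2. By comparison, 36 genes (0.214%) were called for lithium against vehicle and 32 (0.19%) for fluoxetine against vehicle in the same libraries, which share the vehicle group. The call count fell to 631 without replicate 4 of the lithium males and to 647 without replicate 2 of the fluoxetine females, and was 1091 without the striatum-rich library. A total of 472 genes were called with each of the 20 libraries left out in turn.

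Castor2 had the smallest p among genes higher with lithium. It encodes a relative of the arginine sensor Castor1, which restrains the growth kinase complex mTORC1 (chr5:134099711-134144343, plus strand). It had 5956, 6234 and 6791 normalized counts (lowest, median, highest) with lithium, 5057, 5262 and 5473 with fluoxetine, and 4944, 5423 and 5980 with vehicle. Every lithium library lay above every fluoxetine library. The log2 difference was 0.25 ± 0.035 (SE; limma adjusted p = 2.19e-05), and Castor2 was also higher with lithium than with vehicle by 0.20 (limma adjusted p = 0.00488), while fluoxetine against vehicle gave -0.05 (limma adjusted p = 0.623).

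Depdc5 encodes a subunit of GATOR1, the complex that switches mTORC1 off when amino acids are short (chr5:32863701-32994236, plus strand). It ranged from 1852 to 2429 normalized counts around a median of 2042 with lithium, and from 1382 to 2066 around a median of 1727 with fluoxetine, with 4 lithium libraries above the highest fluoxetine one. Its log2 difference was 0.30 ± 0.052 (limma adjusted p = 0.000442). Against vehicle, Depdc5 differed by 0.17 with lithium and -0.13 with fluoxetine (limma adjusted p = 0.153 and 0.264), neither called. Sesn2 and Sesn3, which encode sestrins that pass on leucine and stress signals to the same pathway, were higher by 0.25 and 0.16 (limma adjusted p = 0.019 and 0.000103). A list of 32 genes of amino acid sensing upstream of mTORC1 was put together after the values of all genes had been seen. Of these, 8 were called higher and 1 lower, beside 2.91% and 2.97% of all tested genes. The list median was 0.01 beside 0.00024 for all tested genes. Other members called higher were Slc38a9, a lysosomal arginine transporter and sensor, Lamtor3 of the Ragulator scaffold, and Fnip1 and Fnip2, partners of folliculin. Lamtor1, the Ragulator subunit that anchors it to the lysosome, was lower by a log2 difference of -0.15 (limma adjusted p = 0.00812), and Mtor itself differed by 0.08 (limma adjusted p = 0.48).

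Slc5a3, which encodes the sodium-coupled myo-inositol transporter, was the leading gene of the inositol cycle (chr16:92058322-92087473, plus strand; it overlaps Mrps6 on the same strand, whose reads the authors' counting could share). It had 979, 1152 and 1272 normalized counts (lowest, median, highest) with lithium, 811, 906 and 990.0 with fluoxetine, and 855, 1001 and 1079 with vehicle. All but 1 of the lithium libraries lay above the highest fluoxetine library. The log2 difference was 0.34 ± 0.051 (limma adjusted p = 5.21e-05), 0.44 in males and 0.25 in females. Against vehicle, Slc5a3 differed by 0.19 with lithium and -0.15 with fluoxetine (limma adjusted p = 0.077 and 0.178), neither called.

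Slc5a3 was the 1 gene called among 25 tested members of the inositol cycle, beside 5.88% of all tested genes. The median difference of the list was 0.01. Impa1, the inositol monophosphatase that lithium inhibits, had 2265 to 2665 normalized counts with lithium and 1920 to 2409 with fluoxetine. Its log2 difference was 0.11 ± 0.036 (limma adjusted p = 0.0528), which missed the threshold. Inpp1, the inositol polyphosphate phosphatase that lithium also inhibits, differed by 0.04 ± 0.082 (limma adjusted p = 0.842). Among 20 genes of ion and osmolyte transport, Nfat5, the transcription factor of the response to high salt, and Slc8a1, a sodium and calcium exchanger, were higher by 0.17 and 0.23 (limma adjusted p = 0.0194 and 0.00978). With lithium against vehicle they differed by 0.01 and 0.03, and with fluoxetine against vehicle by -0.16 and -0.20, none of these called, and neither gene was called once length and GC content were corrected in a fit given further on. Akr1b3, the aldose reductase that makes sorbitol, was lower by a difference of -0.11 (limma adjusted p = 0.0258).

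Ctnnb1, which encodes beta-catenin, the protein that GSK3 marks for destruction, was lower with lithium (chr9:120929216-120960507, plus strand). It had 16422, 19017 and 20417 normalized counts (lowest, median, highest) with lithium, 19825, 21291 and 22776 with fluoxetine, and 19972, 20553 and 21730 with vehicle. In 9 of 10 lithium libraries it lay below the lowest fluoxetine library. The log2 difference was -0.21 ± 0.032 (limma adjusted p = 0.000113), and that against vehicle was -0.17 (limma adjusted p = 0.00564).

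In the list of 23 GSK3 and beta-catenin genes, 1 was called higher and 2 lower, beside 2.91% and 2.97% of all tested genes. The median of the list was 0.01, beside 0.00024 for all tested genes. Gsk3b itself was higher by 0.14 ± 0.039 (limma adjusted p = 0.0258), with 7396 to 8641 normalized counts with lithium and 6434 to 7622 with fluoxetine. Nkd1, a feedback inhibitor of Wnt signalling, was lower by a difference of -0.23 ± 0.063 (limma adjusted p = 0.0194). Against vehicle, Gsk3b differed by 0.05 with lithium and -0.09 with fluoxetine, and Nkd1 by -0.07 and 0.16, none of these called. Gsk3a differed by -0.10 (limma adjusted p = 0.201). Frat1, which binds GSK3 and is chosen here after its value was seen, was lower by -0.51 ± 0.105 (limma adjusted p = 0.00207), with 124 to 177 normalized counts with lithium and 155 to 299.5 with fluoxetine.

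**Figure D1:**
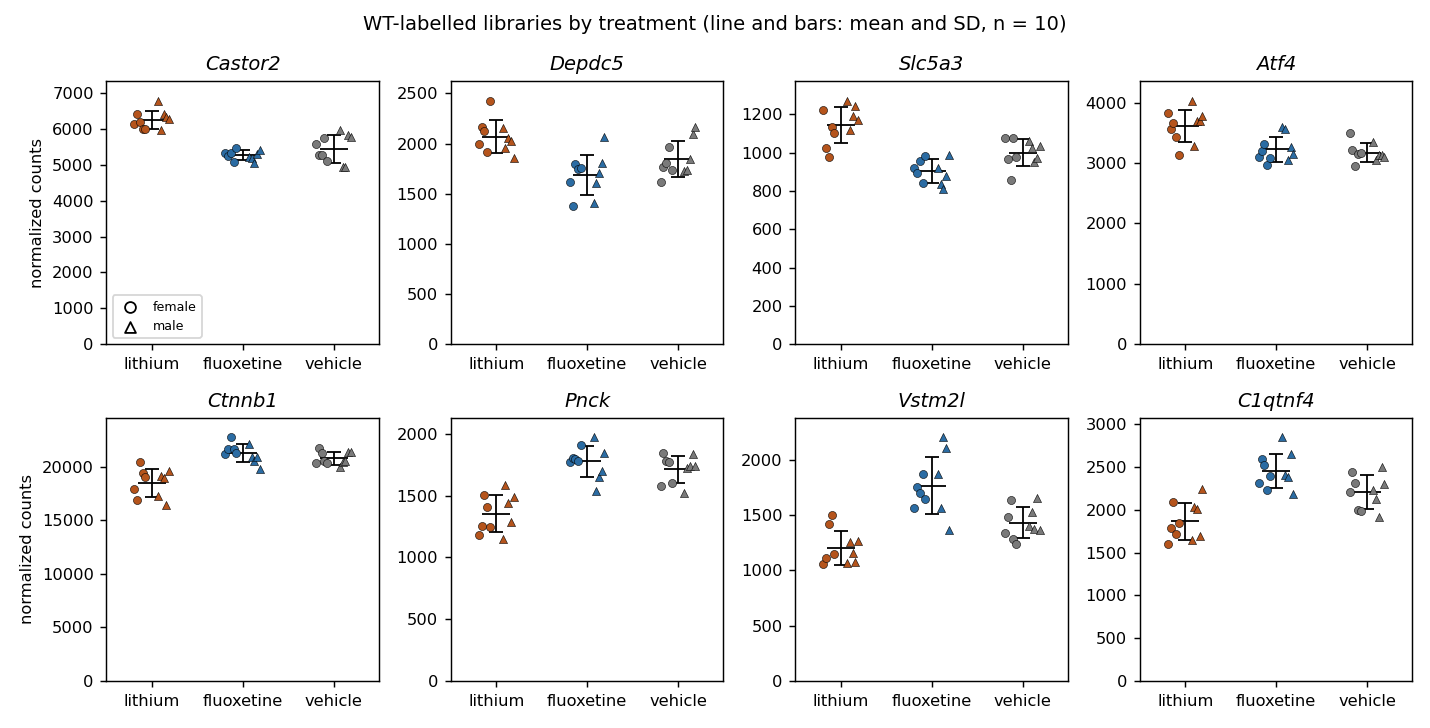
Normalized counts of 8 genes in each WT-labelled library, with lithium, fluoxetine and vehicle from left to right (circles, females; triangles, males; line and bars, mean and SD over 10 libraries). Castor2, Depdc5, Slc5a3 and Atf4 were higher and Ctnnb1, Pnck, Vstm2l and C1qtnf4 lower with lithium than with fluoxetine.

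Among genes lower with lithium, Vstm2l, which encodes a small immunoglobulin-domain protein, had the smallest p of all (chr2:157914653-157944719, plus strand). It had 1061, 1153 and 1498 normalized counts (lowest, median, highest) with lithium, 1368, 1728 and 2205 with fluoxetine, and 1240, 1390 and 1653 with vehicle. The difference was -0.55 ± 0.071 (limma adjusted p = 6.4e-06), and 8 lithium libraries lay below the lowest fluoxetine one. Against vehicle, Vstm2l differed by -0.25 with lithium and 0.30 with fluoxetine (limma adjusted p = 0.105 and 0.0513), neither called. Pnck, a calcium/calmodulin-dependent kinase of neurons, had 1148 to 1585 normalized counts with lithium and 1539 to 1972 with fluoxetine, a difference of -0.40 ± 0.063 (limma adjusted p = 0.000138). Against vehicle, Pnck was lower with lithium by -0.34 (limma adjusted p = 0.00553).

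C1qtnf4, a secreted complement-related protein of the brain, was lower by -0.40 ± 0.057 (limma adjusted p = 2.19e-05). Chmp6, a subunit of the ESCRT-III membrane-cutting machinery, had 588 to 684 normalized counts with lithium and 701 to 803 with fluoxetine, with no overlap. Cspg5, a neural chondroitin sulphate proteoglycan, and Pnma1, a retrovirus-derived neuronal gene, were lower by -0.24 and -0.45 (limma adjusted p = 0.000147 and 0.000361). Further genes lower among the 12 with the smallest p were Dmwd, Btbd2, Amdhd2 and Lrp3, at -0.18 to -0.31. Dmwd and Amdhd2 also had no overlap between the groups. Of the 12 per direction, the others higher with lithium were Nt5c1a (a cytosolic nucleotidase, 0.63, no overlap), Nsun7 (0.46), Zfp322a (0.28), Plekhm3 (0.26), Bod1l (0.18), Trove2 (0.17), Canx (0.17) and Etnk1 (0.15). None of the 24 genes with the smallest p (12 per direction) lost its call with any 1 library left out. Of the 24, 6 were called for lithium against vehicle and 0 for fluoxetine against vehicle. The 24 genes were chosen by p in the same libraries, which by itself makes kept calls and groups without overlap likely.

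The endoplasmic reticulum (ER) is where secreted and membrane proteins fold, and its chaperones are raised by the unfolded protein response. Of 23 tested ER chaperone and folding genes, 22 lay above 0 with lithium, 7 were called higher and 0 lower. Of all tested genes, 50.1% lay above 0, 2.91% were called higher and 2.97% lower. The list median was 0.12 beside 0.00024 for all genes. Canx, the membrane lectin chaperone calnexin, had 11119, 11952 and 12675 normalized counts (lowest, median, highest) with lithium and 9738, 10678 and 11322 with fluoxetine. In 9 lithium libraries it lay above the highest fluoxetine one, a difference of 0.17 ± 0.03 (limma adjusted p = 0.000442).

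Calr (calreticulin, its soluble relative), Hsp90b1 (the chaperone GRP94), Hyou1 (a large ER chaperone), Pdia4 (a disulphide isomerase), Dnajc3 (a co-chaperone that restrains the kinase PERK) and Syvn1 (a ubiquitin ligase of ER-associated degradation) were higher by 0.10 to 0.20. Their limma adjusted p lay between 0.0243 and 0.0483, and each lost its call in at least 3 of the 20 leave-outs. The list median was 0.11 for lithium against vehicle and -0.01 for fluoxetine against vehicle, comparisons that share the vehicle libraries. It was 0.13 in males, 0.10 in females and 0.11 in the HT-labelled libraries. The list median became 0.14, with 10 called higher, without the striatum-rich library.

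The promoters of these genes are shown because a textbook element of ER stress, the ERSE (CCAAT, any 9 bases, CCACG), stands in most of them. Windows of 300 bases, from 250 before to 50 after the start, were taken from RefSeq (GRCm38.p6) and searched on both strands. Of the 7 called genes, 6 had a window and 5 of these held the element (83.3%). So did 9 of 19 tested list members with a window (47.4%), 20 of 12162 tested genes (0.164%) and 37 of 27025 genes overall (0.137%). The element was not found in Pdia4. List members that held it but were not called were Hspa5, Creld2, Pdia6 and Derl3. Other elements were searched in the same 6 windows. An ATF4 element (TGATGNAAN) and the CRE (TGACGTCA) were each found in 0, and the SRE (TCACNCCAC) in 1, Hsp90b1. The windows are Canx at chr11:50325624-50325923 (minus strand), Calr at chr8:84846882-84847181 (minus strand), Hsp90b1 at chr10:86705395-86705694 (minus strand), Dnajc3 at chr14:118937682-118937981 (plus strand) and Syvn1 at chr19:6046326-6046625 (plus strand). Capitals mark the element, which Calr and the second Hsp90b1 site carry on the opposite strand. These matches describe the windows only.
Canx: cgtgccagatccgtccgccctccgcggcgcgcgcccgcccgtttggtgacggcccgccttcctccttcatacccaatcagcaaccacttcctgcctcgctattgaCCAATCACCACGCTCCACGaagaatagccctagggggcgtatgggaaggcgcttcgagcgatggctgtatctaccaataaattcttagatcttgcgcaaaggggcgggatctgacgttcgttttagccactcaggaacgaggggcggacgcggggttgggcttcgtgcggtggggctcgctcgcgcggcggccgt
Calr: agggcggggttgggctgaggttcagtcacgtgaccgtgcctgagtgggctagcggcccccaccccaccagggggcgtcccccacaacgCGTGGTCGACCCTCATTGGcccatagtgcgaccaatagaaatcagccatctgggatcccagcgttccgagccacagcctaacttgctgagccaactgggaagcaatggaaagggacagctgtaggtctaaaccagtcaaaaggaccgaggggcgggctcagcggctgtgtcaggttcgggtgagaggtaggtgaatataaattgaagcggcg
Hsp90b1: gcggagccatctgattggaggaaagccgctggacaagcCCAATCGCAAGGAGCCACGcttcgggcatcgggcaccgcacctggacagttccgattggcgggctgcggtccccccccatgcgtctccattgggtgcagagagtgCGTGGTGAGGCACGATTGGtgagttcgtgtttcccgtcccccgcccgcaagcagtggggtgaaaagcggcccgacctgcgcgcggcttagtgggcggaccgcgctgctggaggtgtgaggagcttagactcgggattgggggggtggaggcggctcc
Dnajc3: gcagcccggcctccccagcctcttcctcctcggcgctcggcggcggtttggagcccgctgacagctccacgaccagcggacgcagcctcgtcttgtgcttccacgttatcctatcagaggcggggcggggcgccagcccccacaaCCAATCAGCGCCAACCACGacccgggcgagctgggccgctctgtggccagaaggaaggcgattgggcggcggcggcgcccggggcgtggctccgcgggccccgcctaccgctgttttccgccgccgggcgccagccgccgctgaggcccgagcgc
Syvn1: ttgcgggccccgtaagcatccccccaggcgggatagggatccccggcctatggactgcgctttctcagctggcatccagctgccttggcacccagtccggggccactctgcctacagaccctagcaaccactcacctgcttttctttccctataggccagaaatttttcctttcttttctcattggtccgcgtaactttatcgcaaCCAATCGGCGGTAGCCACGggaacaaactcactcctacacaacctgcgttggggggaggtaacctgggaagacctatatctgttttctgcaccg

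Atf4, the transcription factor that answers amino acid shortage and ER stress, was higher with lithium, with 3132, 3680 and 4035 normalized counts (lowest, median, highest) against 2966, 3172 and 3594 with fluoxetine and 2945, 3141 and 3489 with vehicle. The difference was 0.16 ± 0.038 (limma adjusted p = 0.00768), and 0.18 against vehicle (limma adjusted p = 0.0218). Of 27 genes of the ATF4 and amino acid response, 3 were called higher (Atf4, Sesn2 and Sars, a seryl-tRNA synthetase) and 0 lower. The list median was 0.04. Of all tested genes, 2.91% were called higher and 2.97% lower. Among 19 cytosolic aminoacyl-tRNA synthetases, a list added after the values were seen, 3 were called higher and 0 lower. These were Iars (isoleucine), Lars (leucine) and Sars, at 0.19, 0.45 and 0.14. The median of the synthetases was 0.02, and -0.0039 in HT-labelled libraries.

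Cholesterol made in the brain is regulated through SREBP transcription factors. Of 25 cholesterol genes, 22 lay above 0, beside 50.1% of all tested genes. Of the 25, 6 were called higher, beside 2.91% of all tested genes, and 0 lower, with a median of 0.13. Acat2, an early enzyme of the pathway, had 1345 to 1567 normalized counts with lithium and 1214 to 1402 with fluoxetine, with 9 lithium libraries above the highest fluoxetine one. Its difference was 0.19 ± 0.042 (limma adjusted p = 0.00432). Ebp, a sterol isomerase, Stard4, a sterol carrier, Sqle, the squalene epoxidase, and Insig1, which holds SREBP back, were among the others, higher by 0.37, 0.22, 0.17 and 0.16. The list median was 0.02 for lithium against vehicle and -0.10 for fluoxetine against vehicle, which share the vehicle libraries.

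Immediate early genes are switched on in neurons within minutes of activity. Of 22 tested, 21 lay above 0, beside 50.1% of all tested genes, and the median was 0.27. But 2 were called, both higher, beside 2.91% of all tested genes: Jun (0.27 ± 0.068, limma adjusted p = 0.0134) and Fosl2 (0.37 ± 0.109, limma adjusted p = 0.0313). The list median was 0.53 in males and 0.05 in females, and no member passed the test of the difference between the sexes. The mean log2 level of the list ran from 8.99 to 10.37 in lithium libraries and from 9.11 to 10.07 in fluoxetine libraries, so the groups overlapped widely. Of 25 interferon response genes, 4 lay above 0 and the median was -0.17, and 0 were called with limma (5 at an unadjusted p under 0.05). Of 22 cytosolic heat shock genes, 3 were called higher and 1 lower, beside 2.91% and 2.97% of all tested genes. Those higher were Hspa1b (a near-identical copy of Hspa1a, so its value is uncertain), Dnaja4 and Chordc1, at 0.42, 0.15 and 0.21. Hspb8 was called lower.

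Of 77 cytosolic ribosomal protein genes, 66 lay below 0 for lithium against fluoxetine, where 50.1% of all tested genes lay above 0. Of the 77, 11 were called lower, beside 2.97% of all tested genes, and 0 higher, and the median was -0.09. In the comparisons with vehicle, which share the vehicle libraries, the median was 0.00054 for lithium, with 39 genes above and 38 below 0, and 0.07 for fluoxetine, with 71 above 0 and 3 called higher. Rpl21 led, at -0.13 (limma adjusted p = 0.00505). Values of ribosomal protein genes are uncertain because reads can be shared with their many processed copies. Sarcomere genes, a list added after the values were seen, had 6 of 15 tested members called lower and 0 higher. Of all tested genes, 2.97% were called lower and 2.91% higher. With length and GC content corrected, 3 sarcomere genes were called lower. Of the 15, 5 lay above 0 and the highest, not called, reached 0.62. The list median was -0.05, beside -0.01 for lithium against vehicle and 0.16 for fluoxetine against vehicle. Called members included Tnnc1 (cardiac and slow troponin C) at -0.62, Tcap (telethonin) at -0.52 and Myh7 (a slow myosin heavy chain) at -0.43. Tnnc1 had 585 to 1421 normalized counts with lithium and 1028 to 1901 with fluoxetine.

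None of the tested members of serotonin signalling (18), neurotrophin signalling (17), the glucocorticoid response (18), the circadian clock (19), glutamatergic postsynaptic genes (30), GABA signalling (20), tubulins (13), proteasome (31) or mitochondrial DNA transcripts (13) was called with limma. At an unadjusted p under 0.05 there were 2, 4, 4, 3, 10, 1, 1, 5 and 1. Htr2a, the main serotonin receptor of cortical pyramidal neurons, had 1783 to 2280 normalized counts with lithium and 1831 to 2985 with fluoxetine, a difference of -0.08 ± 0.074 (limma adjusted p = 0.605). Of 9 glutamate transporter genes, Slc1a1, the neuronal transporter EAAC1, was higher by 0.12 ± 0.026 (limma adjusted p = 0.00297). Of 16 pyrimidine genes, Umps was called higher and Nme2 lower, and of 50 oxidative phosphorylation genes Uqcrb was called higher and Uqcrq lower. Beside these lists, 2.91% of all tested genes were called higher and 2.97% lower.

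**Figure D2:**
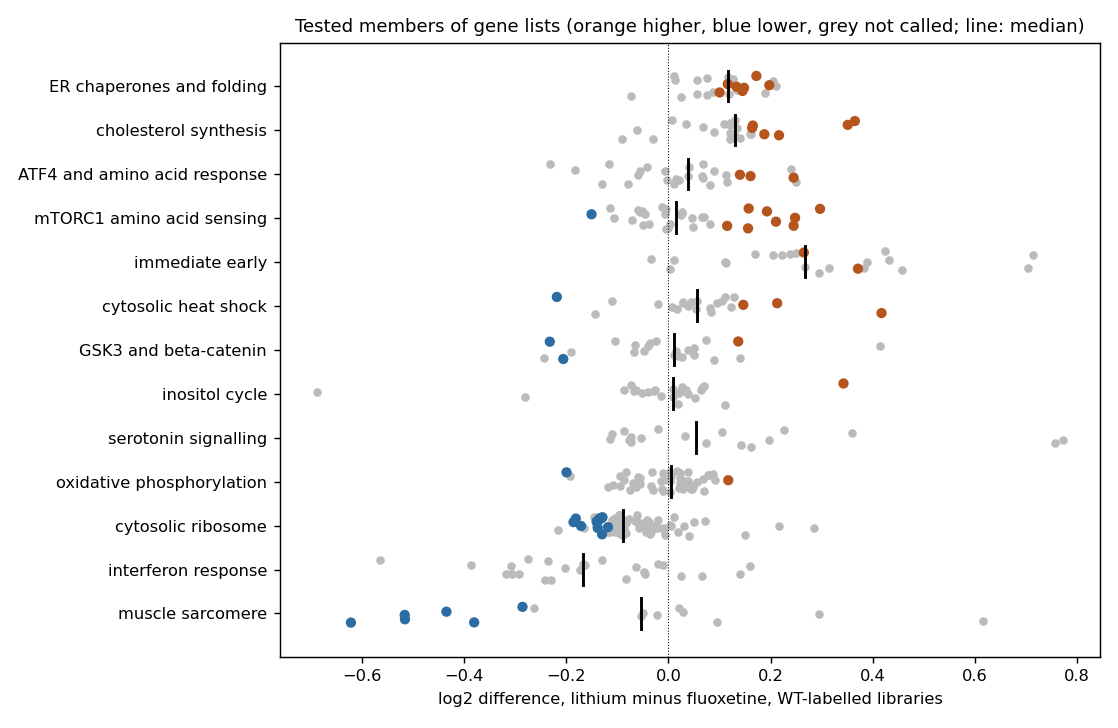
Log2 difference, lithium minus fluoxetine, of each tested member of 13 gene lists in WT-labelled libraries (orange called higher, blue called lower, grey not called; line, list median). The medians of the ER chaperone, cholesterol and immediate early lists lie at 0.12, 0.13 and 0.27, and those of the ribosomal and interferon lists at -0.09 and -0.17.

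Called genes differed in length and base composition by direction. The longest annotated transcript of genes higher with lithium had a median of 5169 bases and 44.2% GC, against 2137 bases and 55.6% GC for genes lower with lithium, beside 3262 bases and 49.4% GC for all tested genes. Within single libraries, the rank correlation of protein-coding genes' deviations with their GC content ranged from -0.231 to 0.131 (median -0.107) with lithium, from -0.0422 to 0.327 (median 0.121) with fluoxetine and from -0.253 to 0.132 (median -0.115) with vehicle. A fit in which length and GC content were regressed out of each library, added after this was seen, called 315 genes (130 higher, 185 lower), of which 251 were among the 990.

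Of the 24 leading genes, 18 kept their call in that fit, among them Castor2, Slc5a3, Depdc5, Vstm2l, Ctnnb1 and Pnck, and 6 did not: Sesn3, Trove2, Canx, Etnk1, Dmwd and Lrp3. Atf4, Sesn2, Acat2, Ebp, Jun, Frat1, Iars, Lars and Tnnc1 kept theirs, as did Nkd1, Slc1a1, Akr1b3, Hspa1b, Dnaja4, Uqcrq, Rpl21, Tcap and Myh7. Calls lost in that fit included those of Gsk3b (limma adjusted p = 0.417), Sars, Fosl2, Stard4, Sqle, Insig1, Nfat5, Slc8a1, Lamtor1, Lamtor3, Slc38a9, Fnip1, Fnip2, Chordc1, Hspb8, Umps, Nme2, Uqcrb, Lamp5 and C1qb. The count fell to 1 of 23 for the ER list (Syvn1, list median 0.09), 3 of 25 for cholesterol (0.13), 2 of 77 for the ribosome (-0.04) and 3 higher and 0 lower of 32 for amino acid sensing. A total of 204 genes were called in all leave-outs and in that fit.

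**Figure D3:**
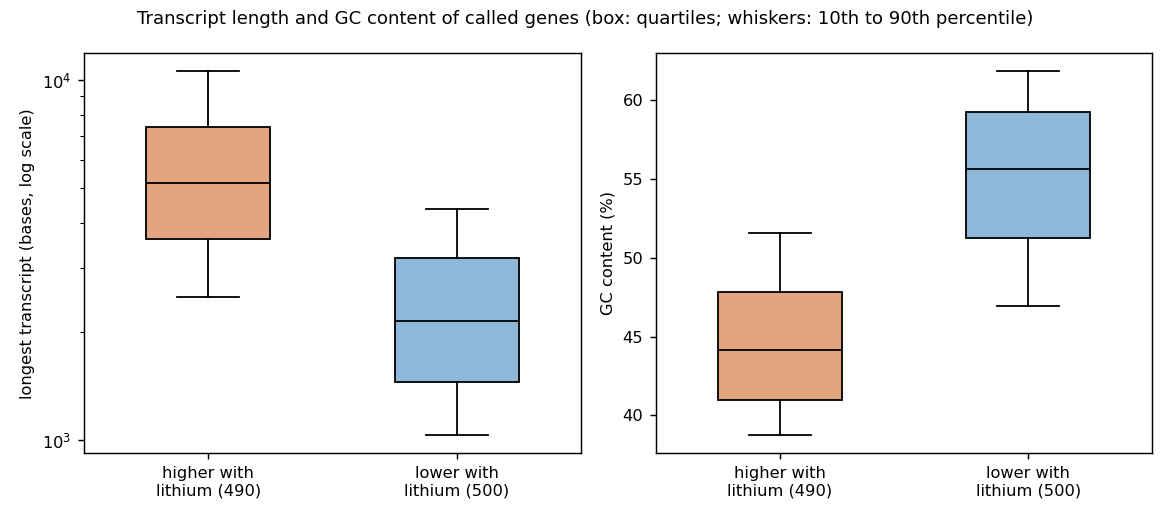
Length of the longest transcript (bases, log scale) and its GC content (%) for the 490 genes called higher and the 500 called lower with lithium than with fluoxetine (box, quartiles; whiskers, 10th to 90th percentile). The medians are 5169 against 2137 bases and 44.2 against 55.6% GC.

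The drug difference was also fitted within each sex. In males 247 genes were called (142 higher, 105 lower; 1.47%) and in females 64 (32 each; 0.38%), and both counts rested on single libraries. In males the count was 44 without fluoxetine replicate 1, 44 without lithium replicate 4 and 531 without fluoxetine replicate 5, and in females it was 0 without fluoxetine replicate 2 and 13 without lithium replicate 2. The difference itself passed the test for 1 gene (0.00594%), Phkg1, a phosphorylase kinase subunit of glycogen breakdown. Phkg1 overlaps Chchd2 on the same strand (mean of 4335 normalized counts over all libraries), whose reads the authors' counting could share. In females Phkg1 had 411 to 463 normalized counts with lithium and 502 to 677 with fluoxetine, without overlap. In males it had 441 to 589 with lithium and 421 to 497 with fluoxetine. The log2 difference was 0.18 in males and -0.36 in females, and male minus female came to 0.54 ± 0.102 (limma adjusted p = 0.0439), a call lost in 13 of the 20 leave-outs. Among the 990 genes, 988 had the same sign in both sexes. These genes were chosen by the mean of the male and female differences, which by itself makes a shared sign likely.

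The same drug comparison in HT-labelled pups used other libraries, though pups of both genotypes may share dams. It called 13 genes (9 higher, 4 lower; 0.0772%), 8 of them also called in WT-labelled pups, including Castor2 (0.23), Slc5a3 (0.25) and Rbm28 (0.35, a ribosome-assembly protein, 0.33 in WT-labelled pups). Of the 990 genes, 891 (90%) had the same sign in HT-labelled pups, beside 64.2% of all tested genes. The same sign together with an unadjusted p under 0.05 was met by 341 (34.4%), beside 8.61% of all. The median HT difference in the WT direction was 0.08, smaller than the WT median of 0.18. The genes were chosen by the WT values, and these shares rest on values not corrected for length and GC content. Within single HT-labelled libraries, the rank correlation of gene deviations with GC content had a median of -0.0169 with lithium and 0.0176 with fluoxetine. The part of length and GC content in the shared signs was not tested. Of the 24 leading genes, 24 had the same sign and 20 an unadjusted p under 0.05. The test of the WT difference against the HT difference called 0 genes with limma (958 at an unadjusted p under 0.05). Its 3 smallest p belonged to Npat, Tnrc6b and Fgfrl1 (limma adjusted p = 0.358 each).

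**Figure D4:**
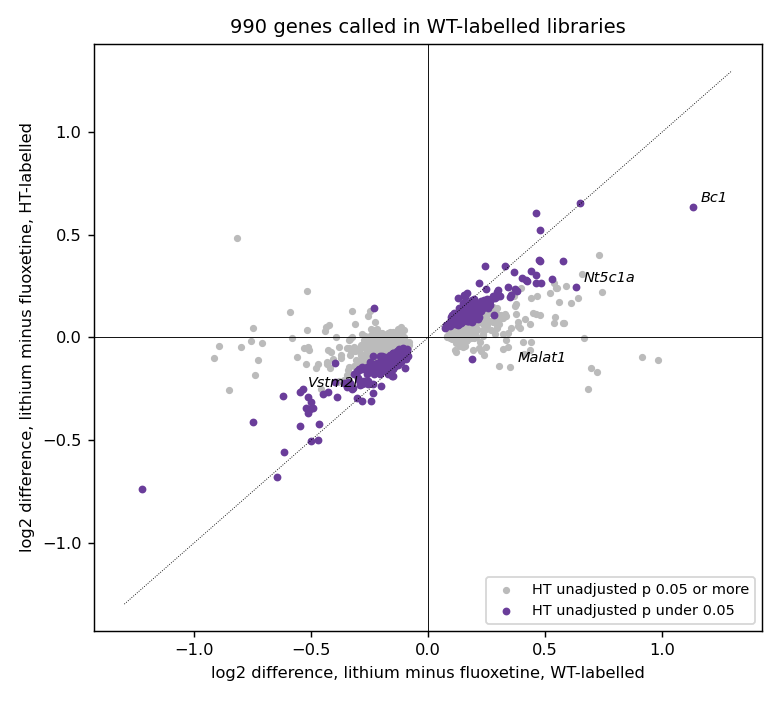
Log2 difference, lithium minus fluoxetine, in WT-labelled (horizontal) and HT-labelled (vertical) libraries for the 990 genes called in WT-labelled libraries (purple, HT unadjusted p under 0.05; dotted line, equal differences). Of these genes, 891 have the same sign in both.

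Within each of the olfactory bulb, striatal, blood and meningeal lists, all markers lay on the same side of 0. None of the 5 olfactory bulb, 13 striatal, 5 blood or 12 meningeal markers was called. At an unadjusted p under 0.05 (limma) there were 0, 1, 3 and 1. All 13 striatal markers lay above 0, with a median of 0.35 and of 0.16 without the striatum-rich library. All 5 blood markers and all 12 meningeal markers lay below 0, with medians of -0.46 and -0.21. In HT-labelled libraries the medians were 0.05 for bulb, -0.06 for striatal, -0.28 for blood and 0.10 for meningeal markers. The mean log2 level of blood markers ran from 9.18 to 10.96 with lithium and from 9.69 to 11.33 with fluoxetine. That of bulb markers ran from 5.34 to 9.61 with lithium and from 4.60 to 10.15 with fluoxetine, and its median difference was -0.40 in males and 1.45 in females. No marker of these lists stood at 0 throughout a group. With the bulb level or the striatal level as a covariate, 1667 and 956 genes were called, and beyond these fits the part of such tissue in single genes was not tested. Lamp5, a marker of superficial neurons, and C1qb, a microglial complement gene, were the only cortical cell markers called, both lower with lithium (-0.34 and -0.17). Against vehicle, Lamp5 differed by -0.04 with lithium and 0.29 with fluoxetine, and C1qb by -0.05 and 0.13, none of these called. The excitatory list that holds Lamp5 had 6 of 14 members above 0 and a median of -0.02. Of the microglial list 1 of 12 lay above 0, of astrocytes 2 of 12, of endothelium and mural cells 2 of 13, of oligodendrocyte precursors 3 of 10 and of inhibitory neurons 8 of 12, with medians of -0.10, -0.10, -0.09, -0.03 and 0.06. All 15 myelin markers lay above 0 in WT-labelled libraries (median 0.15) and all 15 below 0 in HT-labelled ones (median -0.30). In WT-labelled libraries 0 were called by limma (0 at an unadjusted p under 0.05). The WT-labelled sexes differed: 15 lay above 0 in males (median 0.37) and 3 in females (median -0.07). The lithium library highest for these markers was the striatum-rich one.

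**Figure D5:**
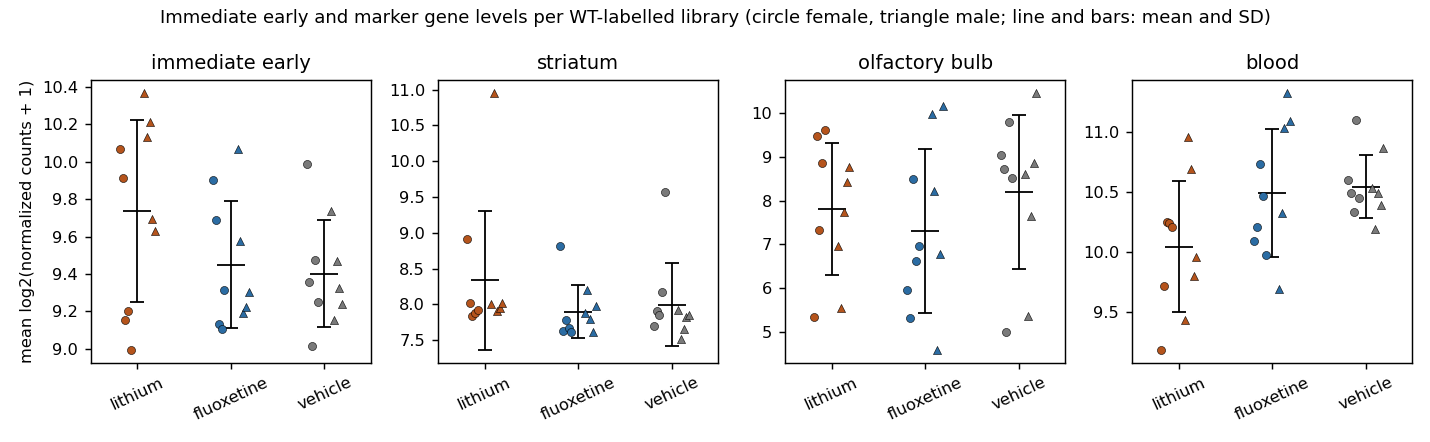
Mean log2(normalized counts + 1) of immediate early, striatal, olfactory bulb and blood marker lists in each WT-labelled library, with lithium, fluoxetine and vehicle from left to right (circles, females; triangles, males; line and bars, mean and SD). One lithium male lies at 10.96 for striatal markers, above the other libraries.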

How the data were processed

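Per the labels' protocols, stranded libraries were made from poly(A)-selected RNA of mouse prefrontal cortex. The authors deposited 1 table of normalized signal values (counts divided by a factor per library). The build GRCm38 and the tools DESeq2 1.19.11, Salmon 0.11.2 and R 3.6.0 are named in the submitters' processing notes without a role. The values are not whole, and whole reads could not be recovered (10.5% of values lay within 0.02 of a whole multiple), so no count model was fitted.

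Genes with a mean of at least 10 were tested with limma 3.58.1 (R 4.3.3) on log2(value + 1), which understates changes of low genes. One model held a mean for each of 12 groups over 59 libraries, with trend and robust shrinkage and Benjamini-Hochberg adjustment over 16839 genes. The drug contrast averaged both sexes. Errors after ± are SE for log2 differences. Named genes were the 12 smallest p per direction with a mean of at least 50, the 3 smallest p of each list, drug targets and Chd8, and the 3 smallest p of each interaction. The members and lists were chosen with earlier results of these data known. Salmon divides reads among similar transcripts. Some genes that met these rules are not reported here. The model was tested on simulated data. Alternatives changed shrinkage, scaling, filter, pseudocount, libraries in the fit, sex term, block, tissue covariates and single libraries; the correction for length and GC content of the longest GENCODE transcript (natural splines, 5 degrees of freedom each) and the lists so marked were added after the data were seen.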

Additional observations from a re-analysis of the deposited data

Results flagged for a closer look

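Among 10 libraries of a group, single libraries stood apart from the rest in 7 of 126 sets of gene values and marker levels examined, where chance flags about 1 in 20. In the lithium libraries, male replicate 2 was highest for oligodendrocyte precursor markers (mean log2 level 9.85) and for striatal markers (10.96). In the fluoxetine libraries, female replicate 2 was lowest for Gsk3b (6434 normalized counts), male replicate 3 highest for Htr2a (2985), male replicate 5 highest for Pdia4 (1634) and for choroid plexus and ependyma markers (mean log2 level 5.52), and female replicate 1 highest for striatal markers (8.82). The drug difference of Phkg1 had opposite signs in the sexes, 0.18 in males and -0.36 in females on the log2 scale. Male minus female (0.54) passed the test of the difference itself, but Phkg1 could share reads with Chchd2 on the same strand.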

How the results depend on the processing

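No named gene called in the WT comparison changed sign in any alternative, while some list medians near 0 did. The WT count of 990 was 591 with no filter beyond a value above 0, 1667 with the olfactory bulb level as covariate, 2145 with principal component 1 as covariate, and 315 with length and GC content corrected; leave-outs gave 631 to 1345. In males, 247 calls became 93, 594, 1014 and 65 under the same 4 settings, and 44 to 531 in leave-outs. In females, 64 became 26, 146, 365 and 0, and 0 to 80 in leave-outs. The sex difference of 1 gene became 0 with TMM factors, without the filter, with the striatal or bulb covariate and with the replicate block, and 0 to 1 in leave-outs. In HT-labelled libraries 13 became 6 without the filter, 84 and 203 with the bulb and component covariates, and 4 to 25 in leave-outs. Lithium against vehicle gave 36, and 16, 113 and 223 under those 3 settings, 10 to 56 in leave-outs. Fluoxetine against vehicle gave 32, and 8, 94 and 171, 17 without trend and robust shrinkage, 7 corrected for length and GC content, and 9 to 230 in leave-outs (230 without replicate 5 of the fluoxetine males). The cause was not tested. Pairing by replicate number was checked for lithium against fluoxetine in WT-labelled libraries only. Same-numbered libraries deviated together with correlations of -0.0817 to 0.193, and 3 of 10 matched their own number best. Among WT-labelled libraries, replicate 1 had the highest mean log2 immediate early level of its sex with each treatment (9.74 to 10.37). Whether the numbers mark pairs or an order of processing was not tested. With the replicate block, 1182 genes were called, 315 in males, 92 in females, 16 in HT-labelled libraries and 101 in each comparison with vehicle. Of 130 named genes, 28 lost and 32 gained a call in at least 1 setting, and 4 lists had a median that moved by more than the spread between libraries. The median SE of a log2 difference, 0.0723, limits what could be detected.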

Other observations

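Bc1 and Malat1 belong to no list and were picked with their values already known. Bc1, a short noncoding RNA carried into dendrites, had 1226, 3110 and 5654 normalized counts (lowest, median, highest) with lithium and 843, 1120 and 2224 with fluoxetine, a log2 difference of 1.13 ± 0.233 (limma adjusted p = 0.0024). Malat1, a long nuclear noncoding RNA, was higher by 0.35 (limma adjusted p = 0.00993) in WT-labelled pups and had a difference of -0.15 in HT-labelled pups (limma adjusted p = 0.626). The difference between the genotypes, 0.50 ± 0.125, was not called (limma adjusted p = 0.514). The longest annotated Bc1 transcript has 168 bases. The libraries were made from poly(A)-selected RNA, and how that selection acts on Bc1 and Malat1 was not tested.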
